A study of Rattus norvegicus with 12 samples.

Results

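Insulin-like growth factor 2 (Igf2, ENSRNOG00000020369), insulin-like growth factor 1 (Igf1, ENSRNOG00000004517) and the type 1 insulin-like growth factor receptor (Igf1r, ENSRNOG00000014187) were followed in the left ventricle (LV) of neonatal rats. They are 3 of the 34733 rows of each count file and were taken by their Ensembl identifiers. RNA was sequenced from LVs of Sprague–Dawley pups of both sexes at postnatal day 3 (P3) and day 7 (P7), after abdominal aortic banding surgery (ABS) or sham surgery on postnatal day 1. ABS ties the abdominal aorta over a needle that is then withdrawn, which leaves a fixed lumen. The study used it to load the LV with pressure. Its device could not read blood pressure in the first weeks, so none was measured at P3 or P7. The study's methods describe anesthesia on ice for the banding operation. The steps of the sham operation are not given in the sources used here. Each of the 4 groups (ABS-P3, Sham-P3, ABS-P7 and Sham-P7) had 3 libraries, and the study allotted 3 pups to sequencing in each. The labels do not tie a library to a pup, so p-values measure the spread between these libraries. The labels name myocardiocytes of the LV as the source, while the study's methods state that LVs were collected. The defining markers of cardiomyocytes and of other heart cells could not be looked up, since no symbols stand beside the identifiers and 0 of the 32883 Ensembl identifiers matched the RefSeq table.

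Igf1 and Igf2 are small secreted proteins related to insulin. Both bind Igf1r, a receptor tyrosine kinase at the cell surface that activates the PI3K–Akt and MAP kinase pathways and so promotes growth, division and survival of cells. Igf2 is an imprinted gene that is transcribed from several promoters and is the main IGF of fetal life, and its RNA is known to decline after birth in rodents, while Igf1 depends largely on growth hormone and takes over later. In the heart, IGF signaling is known for its role in cardiomyocyte proliferation before and shortly after birth.

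A count belongs to a whole gene, so RNA from the different start sites of Igf2 is summed. To show which starts those are, the RefSeq windows of assembly GRCr8 that were matched by symbol are printed, each of 300 bases around an annotated start. The build on which the reads were counted is not established, so these positions may differ from those used in the counting. Igf2 has windows at chr1:207253931-207254230 and chr1:207250426-207250725 on the minus strand, Igf1 has 1 window at chr7:24172282-24172581 on the plus strand and Igf1r has 1 window at chr1:130959747-130960046 on the plus strand. Capitals mark the letters GGGCGG or their reverse complement, the core of a GC box, which 33.1% of the 33469 windows hold. The letters TATAAA were searched likewise on both strands and are in none of these 4 windows, against 14.2% of all windows. Only the exact letters were searched, so near forms of them were not counted.
Igf2 first window: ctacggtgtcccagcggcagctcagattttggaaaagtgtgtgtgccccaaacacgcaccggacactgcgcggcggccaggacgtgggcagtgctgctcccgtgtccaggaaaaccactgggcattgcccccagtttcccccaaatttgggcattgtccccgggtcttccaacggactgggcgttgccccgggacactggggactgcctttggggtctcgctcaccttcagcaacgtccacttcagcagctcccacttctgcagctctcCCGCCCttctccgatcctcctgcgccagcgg
Igf2 second window: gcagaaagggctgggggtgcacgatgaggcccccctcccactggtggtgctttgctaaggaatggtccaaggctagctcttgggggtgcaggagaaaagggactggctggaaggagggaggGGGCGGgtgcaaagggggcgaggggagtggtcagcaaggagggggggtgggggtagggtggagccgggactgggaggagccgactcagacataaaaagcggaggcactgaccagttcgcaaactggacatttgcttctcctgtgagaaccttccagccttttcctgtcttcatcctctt
Igf1 window: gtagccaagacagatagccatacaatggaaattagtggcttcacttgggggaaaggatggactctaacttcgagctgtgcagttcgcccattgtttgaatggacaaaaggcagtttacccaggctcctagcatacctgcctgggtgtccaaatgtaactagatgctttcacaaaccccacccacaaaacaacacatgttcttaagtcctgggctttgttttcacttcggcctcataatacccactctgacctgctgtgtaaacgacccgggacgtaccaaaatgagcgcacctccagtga
Igf1r window: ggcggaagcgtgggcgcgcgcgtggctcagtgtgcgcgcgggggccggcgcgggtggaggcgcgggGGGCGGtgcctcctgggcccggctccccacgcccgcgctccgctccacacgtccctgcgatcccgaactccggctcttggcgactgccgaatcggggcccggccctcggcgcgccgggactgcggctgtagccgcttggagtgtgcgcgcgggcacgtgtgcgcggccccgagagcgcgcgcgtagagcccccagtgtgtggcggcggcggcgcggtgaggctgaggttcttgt
The Igf1r window is 78% G and C with 50 CG dinucleotides, the Igf2 windows are 63.3% and 60.7% with 19 and 7, and the Igf1 window is 48.3% with 7. The median over all windows is 51.7% and 7. In GRCr8, Igf2 overlaps Mir483 and LOC102548568, Igf1r overlaps Pgpep1l and the noncoding LOC134483685, and Igf1 overlaps no other listed gene. The strand setting of the counting is not given, so reads in such overlaps may belong to either gene.

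The libraries of P3 were less alike than those of P7. Total counts were 14268210 to 17286278 per library. At P3, ABS replicates 1 and 2 and sham replicate 2 had 15266, 15719 and 15451 genes with at least 1 count, against 17259 to 18359 in the other 3 libraries of that day and 18579 to 18982 at P7. The 10 most abundant genes took 21.6% to 25.5% of the counts in those 3 libraries, 18.3% to 19.4% in the others of P3 and 15.7% to 18.6% at P7. The biological coefficient of variation was 0.544 at P3 and 0.148 at P7. Levels are given as CPM, counts relative to the library total, with totals scaled by TMM, a method that aligns the bulk of genes between libraries, and each comparison that includes P3 was also computed without those 3 libraries. Fold changes and their standard errors (SE) come from edgeR's quasi-likelihood test, and the Benjamini-Hochberg adjustment ran over the whole table of each comparison.

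Over both surgery groups, Igf2 decreased by 29.9% from P3 to P7. In the sham group, it was at 602, 886 and 862 CPM at P3 and at 389, 571 and 562 CPM at P7. With TMM scaling, all 3 sham libraries of P7 thus lay below all 3 of P3, as did 14.5% of the 14619 genes tested. With total counts alone they overlapped, since replicate 3 of P7, at 614 CPM, lay just above replicate 1 of P3, at 613 CPM, and 7.87% of genes were separated in this direction. In the ABS group, it was at 646, 590 and 478 CPM at P3 and at 458, 484 and 414 CPM at P7. There the days overlapped by 1 library, since replicate 2 of P7 lay above replicate 3 of P3. In bulk tissue, fewer cells that make an RNA and less of that RNA per cell cannot be told apart. Over all 12 libraries, with surgery as a covariate, the log2 fold change was -0.51 (SE 0.15, 95% confidence interval -0.84 to -0.19, edgeR adjusted p = 0.0344). Of 14919 genes, 19% had an adjusted p under 0.05 in this comparison and 13.6% were lower at P7, so a fall of this kind was common among genes.

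The call for Igf2 was close to the threshold. When 1 library was left out in turn, the log2 fold change stayed between -0.58 and -0.42, but the adjusted p was over 0.05 in 10 of the 12 fits, with a range of 0.00969 to 0.0909. It passed without ABS replicate 3 or without sham replicate 1 of P3, fits that called 6223 of 15240 and 5520 of 15144 genes. Without the 3 libraries of fewest detected genes, the log2 fold change was -0.38 (adjusted p = 0.243). Igf2 was lower at P7 in each of the 20 alternatives. The adjusted p was 0.0210 with DESeq2, 0.00708 with limma's sample quality weights and 0.0542 with the replicate number as a block. DESeq2 called 4094 of 17271 genes there, the quality weights 7398 of 14919 and the block 2203 of 15236. With total counts in place of TMM scaling, an alternative chosen after seeing the data, the log2 fold change was -0.26 (adjusted p = 0.163). That scaling moved the median log2 fold change of all genes from near 0 to 0.23, and the share of called genes that were higher at P7 from 28.5% to 56.4%. Relative to that median, Igf2 fell by 0.51 on the log2 scale with TMM and by 0.49 with total counts. A change of scaling shifts all genes of a library alike, so these values must lie close and do not test the fall.

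**Figure D1:**
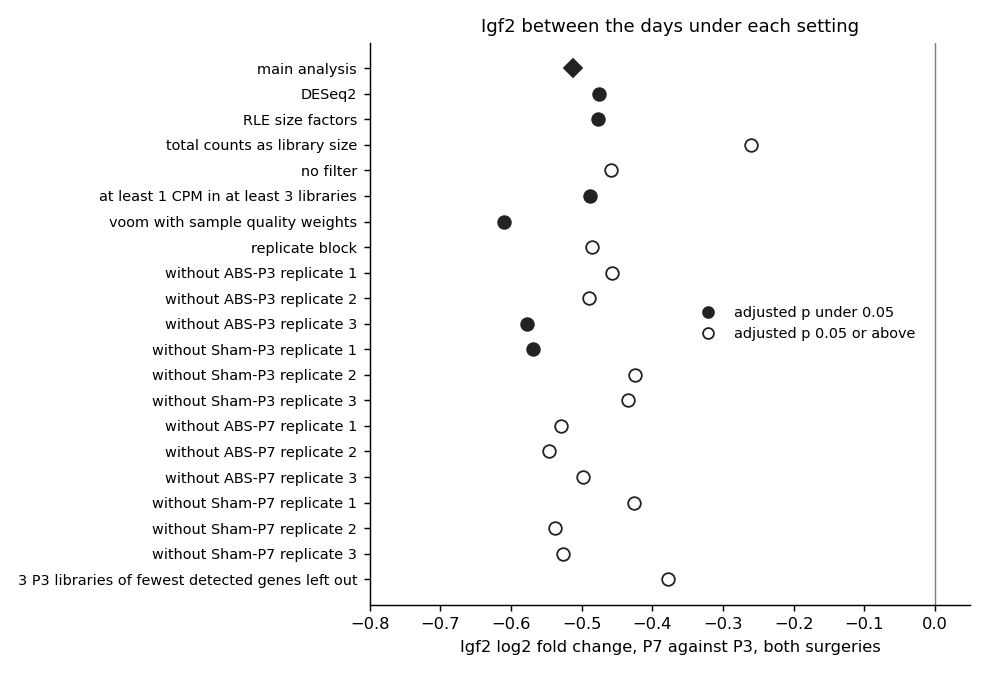
Log2 fold change of Igf2 between P7 and P3 over both surgery groups (x axis) in the main analysis (diamond) and under 20 alternatives (circles, 1 per line). Filled marks have an adjusted p under 0.05. All marks lie below 0, between -0.61 and -0.26, and 14 of the 20 alternatives are open circles.

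Within 1 surgery group, the fall of Igf2 did not pass the adjusted threshold. The log2 fold change was -0.63 after sham surgery (SE 0.25, adjusted p = 0.301 from edgeR) and -0.37 after ABS (SE 0.19, adjusted p = 0.334). In these comparisons, 0.00684% of 14619 genes and 0.0138% of 14504 genes were called. Quality weights gave an adjusted p of 0.011 for sham pups and 0.0227 for ABS pups, but called 6707 of 14619 and 6791 of 14504 genes. Leaving out sham replicate 1 of P3 gave an adjusted p of 0.0306 in the sham group, where 4820 of 14979 genes were called. Leaving out ABS replicate 3 of P3 gave 0.0065 in the ABS group, where 7468 of 14915 genes were called. Other settings made the change smaller. In the ABS group, the log2 fold change was -0.12 with total counts (adjusted p = 0.632). It was -0.09 without the P3 libraries of fewest detected genes (adjusted p = 0.733), a fit that leaves 1 ABS library at P3, which is assumed to vary like the others. In the sham group, these settings gave -0.40 (adjusted p = 0.418) and -0.53 (adjusted p = 0.372). The difference between the groups' changes was tested by the interaction term of day with surgery, where Igf2 had a log2 value of 0.29 (SE 0.30, adjusted p = 1.00). Leaving out 1 library in turn gave 0.11, without sham replicate 1 of P7, to 0.42.

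At P3, ABS libraries had 571 ± 85.8 CPM of Igf2 (SD, n = 3) and sham libraries 783 ± 157 CPM (SD, n = 3). ABS replicate 1, at 646 CPM, was above sham replicate 1, at 602 CPM, and the other ABS libraries were below all sham libraries. The log2 fold change was -0.44 (SE 0.28, 95% confidence interval -1.09 to 0.22), with an adjusted p of 1.00 from edgeR. The overlap depended on the scaling. Scaled by total counts alone, Igf2 was at 546, 529 and 503 CPM after ABS and at 613, 710 and 850 CPM after sham surgery, so the groups were apart. With this scaling, all ABS libraries were below all sham libraries for 1.69% of 14222 genes.

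At P7, ABS libraries had 452 ± 35.4 CPM of Igf2 (SD, n = 3) and sham libraries 508 ± 103 CPM (SD, n = 3). The sham library of replicate 1, at 389 CPM, was below all ABS libraries, while the other sham libraries were above them. The log2 fold change was -0.17 (SE 0.14, 95% confidence interval -0.50 to 0.16, adjusted p = 1.00 from edgeR). When 1 library was left out, it ran from -0.33 without sham replicate 1 to -0.07 without sham replicate 2, with an adjusted p of at least 0.938. Over both days, a comparison added after seeing the data, Igf2 had a log2 fold change of -0.30 after ABS (SE 0.15, 95% confidence interval -0.63 to 0.02), with an adjusted p of 1.00 from edgeR. It was below 0 in each of its 20 alternatives, and -0.18 with limma's quality weights. Ordered by mean, Igf2 was highest in Sham-P3, followed by ABS-P3, Sham-P7 and ABS-P7, and neighbors in this order overlapped. With total counts, the order was Sham-P3, Sham-P7, ABS-P3 and ABS-P7. Counts of Igf2 were 5998 to 13793 reads per library. For a library at its group's mean count, counting error was 0.91% to 1.17%, while the libraries of a group varied by 7.83% to 20.2%.

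Between ABS and sham, edgeR called 0% of genes at P3, at P7 and over both days, and 0% in the interaction. At an unadjusted p under 0.05, it gave 47, 498, 149 and 176 genes. DESeq2 had 171, 406, 339 and 393 genes at an unadjusted p under 0.05 and called 4, 10, 0 and 5 after adjustment, and limma's quality weights called 0, 0, 0 and 1. None of the 3 IGF genes was called by any of these tools in these 4 comparisons.

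**Figure D2:**
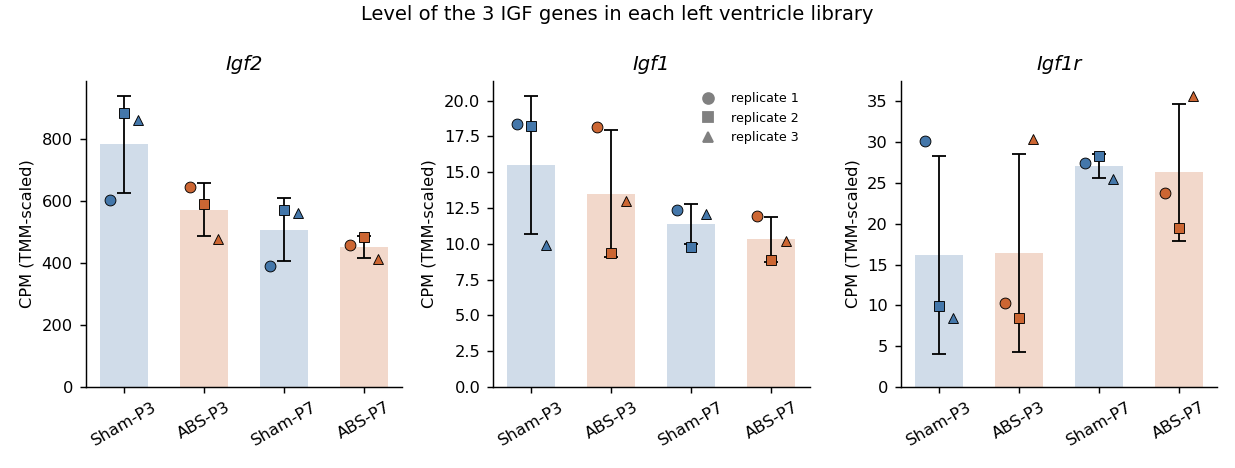
Level of Igf2, Igf1 and Igf1r in CPM on TMM-scaled totals (y axis, from 0) in the 4 groups (x axis). Each mark is 1 library, the bar is the mean of 3 and the line is the SD. With this scaling, the 3 Sham-P7 libraries of Igf2 lie below the 3 Sham-P3 libraries, which overlap with total counts, and Igf1r splits the P3 libraries of both groups into 2 high and 4 low marks.

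Igf1, the growth hormone-dependent ligand, had few reads and no called difference. In the sham group, it was at 18.4, 18.2 and 9.93 CPM at P3 and at 12.3, 9.8 and 12.1 CPM at P7. In the ABS group, it was at 18.2, 9.33 and 13.0 CPM at P3 and at 12.0, 8.84 and 10.2 CPM at P7. The days overlapped in both surgery groups, because at least 1 library of each P3 group lay within the range of P7. Over both surgeries, the log2 fold change between P7 and P3 was -0.45 (SE 0.21, 95% confidence interval -0.89 to 0.00), with an adjusted p of 0.132 from edgeR. The adjusted p ranged from 0.0888 to 0.504 across the 20 alternatives, and the direction was the same in all of them. With quality weights, the log2 fold change was -0.17 over both surgeries and 0.07 in the sham group alone. Counts of Igf1 were 130 to 323 reads per library. For the lowest count, an exact Poisson 95% interval, which covers counting error only, runs from 109 to 154 reads.

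ABS and sham libraries overlapped for Igf1 on both days. At P3, it was at 13.5 ± 4.45 CPM (SD, n = 3) after ABS and 15.5 ± 4.83 CPM (SD, n = 3) after sham surgery. At P7, it was at 10.3 ± 1.57 CPM (SD, n = 3) and 11.4 ± 1.4 CPM (SD, n = 3). The log2 fold change was -0.18 (95% confidence interval -1.13 to 0.76) at P3 and -0.14 (95% confidence interval -0.49 to 0.21) at P7, with an adjusted p of 1.00 from edgeR on each day. At P3 the sign turned without ABS replicate 2, to 0.03, and with quality weights, to 0.15. With 1 library left out, the value at P7 ran from -0.26 without ABS replicate 1 to -0.05 without ABS replicate 2. The spread between libraries was wider at P3, with a coefficient of variation of 33% and 31.1%, than at P7, with 15.2% and 12.3%. Counting error alone gives 6.43% to 7.68%. Ordered by mean, Igf1 was highest in Sham-P3, followed by ABS-P3, Sham-P7 and ABS-P7, and the libraries of neighboring groups overlapped.

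The ratio of Igf2 to Igf1 counts within a library needs no library size. It is a ratio of reads and not of molecules, since the lengths of the counted transcripts are not given, and it is compared only between libraries. It was 32.8, 48.5 and 86.7 in Sham-P3, 35.6, 63.3 and 36.8 in ABS-P3, 31.6, 58.3 and 46.4 in Sham-P7 and 38.3, 54.8 and 40.7 in ABS-P7. The groups overlapped throughout, and the widest range was in Sham-P3. The log2 ratio, with 0.5 added to each count, was compared between P7 and P3 over both surgeries (mean difference -0.11, exact permutation test within surgery groups, two-sided, p = 0.695). It was likewise compared between ABS and sham over both days (mean difference -0.12, exact permutation test within days, two-sided, p = 0.64). The smallest p these tests can give is 0.005. Both signs turned without sham replicate 3 of P3, the library of highest ratio, to 0.08 and 0.06. The sign for the days also turned without ABS replicate 2 of P3, to 0.03, and without sham replicate 1 of P7, to 0.01. The log2 fold changes between the days were -0.45 for Igf1 and -0.51 for Igf2. A test of 3 libraries against 3 cannot give a p below 0.1. Within 1 surgery group, the mean difference between the days was -0.23 in the sham group (exact permutation test, p = 0.6) and 0.01 in the ABS group (exact permutation test, p = 1). Between ABS and sham, it was -0.25 at P3 (exact permutation test, p = 0.7) and near 0 at P7 (exact permutation test, p = 1).

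**Figure D3:**
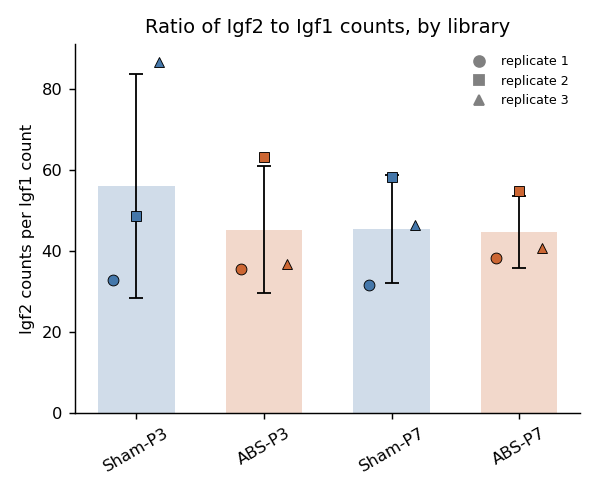
Igf2 counts per Igf1 count (y axis, from 0) in the 4 groups (x axis). Each mark is 1 library, the bar is the mean of 3 and the line is the SD. The libraries run from 31.6 to 86.7 and the 4 groups overlap.

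Igf1r, the receptor of both ligands, split the P3 libraries across the surgery groups. At P3, it was at 10.3, 8.47 and 30.4 CPM in ABS replicates 1, 2 and 3 and at 30.2, 9.87 and 8.43 CPM in sham replicates 1, 2 and 3. In counts, these are 141, 118 and 475 reads after ABS and 531, 132 and 135 reads after sham surgery. One ABS and 1 sham library of P3 were thus near the level of P7, and the other 4 lay between 8.43 and 10.3 CPM. At P7, it was at 23.8, 19.5 and 35.7 CPM in the ABS group and at 27.4, 28.4 and 25.4 CPM in the sham group. All 6 libraries of P7 lay above the 4 low libraries of P3. The 2 high libraries of P3 were also those with the most genes detected on that day, 17530 and 18359. The 4 low ones had 15266, 15719, 15451 and 17259, so sham replicate 3 was low in Igf1r with nearly as many genes detected as ABS replicate 3. Their TMM factors were 1.05 and 1.02 in the 2 high libraries and 0.802 to 0.987 in the 4 low ones. The part of library quality in the split was not tested.

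**Figure D4:**
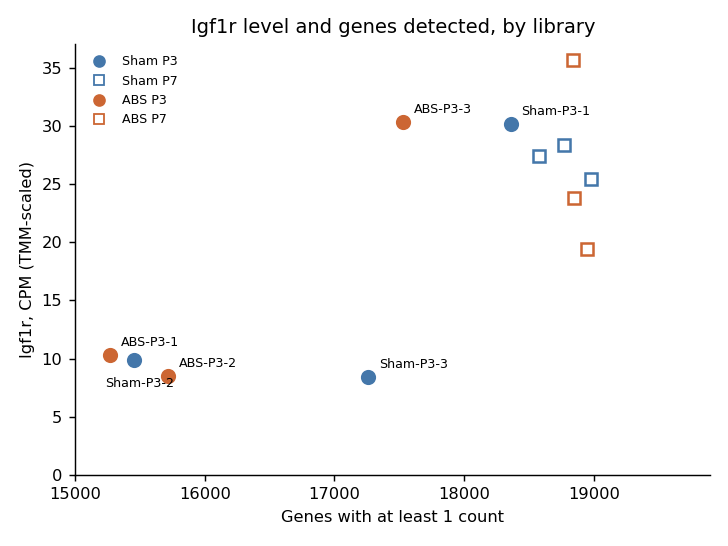
Igf1r in CPM on TMM-scaled totals (y axis, from 0) against genes detected by 1 count or more (x axis) in the 12 libraries, filled circles for P3 and open squares for P7, blue for sham and orange for ABS. Of the P3 libraries, 4 lie between 8.43 and 10.3 CPM, and the other 2, at 30.2 and 30.4 CPM, lie within the CPM range of the P7 libraries with fewer genes detected than any of them.

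With this split, no difference of Igf1r was called. Between P7 and P3 over both surgeries, the log2 fold change was 0.68 (SE 0.37, 95% confidence interval -0.12 to 1.49, adjusted p = 0.186 from edgeR). It was 0.74 in the sham group (adjusted p = 0.421) and 0.66 in the ABS group (adjusted p = 0.46). Single libraries decided these values. Without ABS replicate 3 of P3, the log2 fold change over both surgeries was 1.03 (adjusted p = 0.0306), where 6223 of 15240 genes were called. That in the ABS group was 1.46 (adjusted p = 0.00527), where 7468 of 14915 genes were called. Without sham replicate 1 of P3, the log2 fold change over both surgeries was 1.03 (adjusted p = 0.0386), where 5520 of 15144 genes were called. That in the sham group was 1.55 (adjusted p = 0.0089), where 4820 of 14979 genes were called. Without the 3 libraries of fewest detected genes, it was 0.20 (adjusted p = 0.778) over both surgeries and turned to -0.22 in the ABS group. In that fit the only ABS library left at P3 is replicate 3, the high one, so its sign rests on that library. Limma's quality weights, which give deviating libraries less weight, gave 1.27 (adjusted p = 0.0028). With these weights, 7398 of 14919 genes were called, against 2840 in the main fit.

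Between ABS and sham, the means of Igf1r lay close together with a wide error. At P3 they were 16.4 ± 12.1 CPM (SD, n = 3) and 16.2 ± 12.2 CPM (SD, n = 3), and at P7 26.3 ± 8.41 CPM (SD, n = 3) and 27.1 ± 1.48 CPM (SD, n = 3). The log2 fold change was 0.04 (95% confidence interval -1.58 to 1.65) at P3 and -0.04 (95% confidence interval -0.52 to 0.44) at P7, with an adjusted p of 1.00 from edgeR on each day. Changes of more than 2-fold in either direction lie within the interval at P3, so a difference of that size was not detectable there. When 1 library was left out, the value at P3 ran from -0.77 to 0.86. Ordered by mean, Igf1r was highest in Sham-P7, followed by ABS-P7, ABS-P3 and Sham-P3, and neighbors overlapped.

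In both P3 groups, the library with the most Igf1r, ABS replicate 3 or sham replicate 1, had the least Igf2, at 478 and 602 CPM. The library with the least Igf1r, ABS replicate 2 or sham replicate 3, was in the middle for Igf2, at 590 and 862 CPM. In ABS-P7, replicate 3 had the most Igf1r and the least Igf2, and replicate 2 the reverse. In Sham-P7, the order differed, since replicate 2 had the most of both. Over the 12 libraries, Pearson's r of log2 CPM was -0.75 for Igf2 with Igf1r, 0.34 for Igf2 with Igf1 and -0.07 for Igf1 with Igf1r. These libraries fall into clusters, so the values are descriptions and no p is given. By the rule for similar genes, Pearson's r of log2 CPM was taken over the 12 libraries against 9129 genes whose mean reached 10 CPM, as a description, since all genes share these libraries and their scaling. The gene most like Igf1r was ENSRNOG00000014511 (r = 0.98), and 543 genes had an r above 0.9 with it. For Igf2 the most similar gene was ENSRNOG00000040350 (r = 0.91) and for Igf1 it was ENSRNOG00000003329 (r = 0.92), and 2 genes were above 0.9 for either ligand. These values mix the difference between the days with the split within P3.

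**Figure D5:**
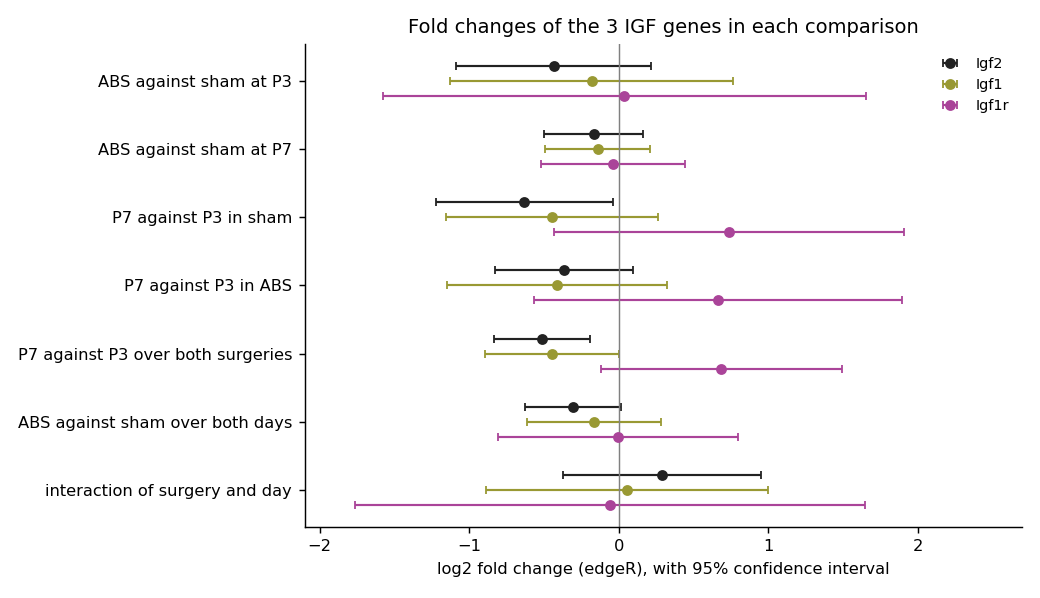
Log2 fold change (x axis) of Igf2, Igf1 and Igf1r with its 95% confidence interval in 7 comparisons (y axis), from edgeR. The interval of Igf2 lies below 0 for P7 against P3 over both surgeries and in the sham group, and all other intervals include 0.

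The interaction of surgery and day was not called for Igf1 or Igf1r either. Their log2 values were 0.06 (SE 0.43) and -0.06 (SE 0.78), with an adjusted p of 1.00 from edgeR for each. The receptor Igf2r, the binding proteins, the insulin receptor, the signaling genes and the other imprinted growth genes that were listed by symbol were not analysed here, because their identifiers could not be matched.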

How the data were processed

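Poly-A RNA libraries (NEBNext Ultra, NovaSeq, paired reads) were analysed in 12 samples, grouped by their titles. The authors deposited raw counts per gene, made with featureCounts after read filtering. The submitters' processing notes name HISAT2 2.0.5 and the mouse builds GRCm38 and mm10, while the rows carry rat Ensembl identifiers and 1850 numbered names outside Ensembl, which held 0.983% to 1.27% of the counts and stayed in the fits. Which build the reads were aligned to is therefore not settled, and no coordinates of counted reads are given. The 3 identifiers were supplied with their symbols, since 0 identifiers matched the RefSeq table.

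Counts were fitted with edgeR 4.0.16 (R 4.3.3; TMM, filterByExpr, robust quasi-likelihood test). The Benjamini-Hochberg threshold was 0.05 over each whole table. The script was tested on simulated data. Alternatives were DESeq2 1.42.0, voom sample quality weights in limma 3.58.1, RLE size factors, other filters, all 12 libraries fitted together, the replicate block, each library left out, and the 3 P3 libraries of fewest detected genes left out. Total counts as library size and ABS against sham over both days were added after seeing the data. The members, lists and alternatives were chosen with earlier results of these data known. Pathway and marker lists fixed by symbol could not be matched. Genes most like a member were those of highest Pearson's r, of which the first is named and 3 were recorded. No 2 libraries of a group agreed within sampling noise.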

Additional observations from a re-analysis of the deposited data

How the results depend on the processing

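The replicate numbers were not taken to pair libraries: same-numbered libraries of ABS and sham had correlated deviations of -0.45, 0.36 and -0.01 on P3, while on P7 these were 0.01, 0.05 and 0.00. With the replicate block, Igf2 between P7 and P3 over both surgeries was -0.49 and lost its call, 2203 genes were called there, and 0 were called between the days within sham or within ABS. That change of Igf2 also lost its call without a filter (-0.46), with total counts (-0.26), without the 3 P3 libraries of fewest genes (-0.38) and in 10 of 12 fits with 1 library left out (-0.58 to -0.42). The cause was not tested. It kept its direction in all 20 alternatives.

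With quality weights, calls were gained between the days by Igf2 in sham (-0.77) and ABS (-0.43) and by Igf1r in sham (1.58), ABS (1.23) and both (1.27), and signs turned for Igf1 between ABS and sham at P3 (0.15), between the days in sham (0.074) and in the interaction (-0.27). Without the 3 P3 libraries, signs turned for Igf1r between the days in ABS (-0.22) and between ABS and sham over both days (0.18), and for Igf1 in the interaction (-0.014). With 1 library left out, Igf1 between ABS and sham at P3 ran from -0.47 to 0.028, and Igf1r from -0.77 to 0.86 at P3, from -0.33 to 0.13 at P7 and from -0.35 to 0.34 over both days. Between the days, Igf2 ran from -0.80 to -0.48 in sham and from -0.48 to -0.26 in ABS, and Igf1r from 0.43 to 1.55 in sham, from 0.36 to 1.46 in ABS and from 0.57 to 1.03 over both. The interaction ran from 0.11 to 0.42 for Igf2, from -0.15 to 0.33 for Igf1 and from -0.91 to 0.72 for Igf1r. The ratio ran from -0.27 to 0.078 between the days (-0.56 to 0.14 in sham, -0.14 to 0.28 in ABS) and from -0.29 to 0.063 between ABS and sham (-0.57 to 0.13 at P3, -0.24 to 0.20 at P7).

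Counts of called genes moved more. DESeq2 called 4 genes at P3, 10 at P7, 410 between the days in sham, 510 in ABS and 5 in the interaction. Quality weights called 6707 of 14619, 6791 of 14504 and 7398 of 14919 genes between the days in sham, in ABS and over both. They called 1 in the interaction. Without a filter, 3 genes were called at P7 and 2 between the days in sham. Total counts gave 2, 0 and 1806 between the days in sham, ABS and both. Without the 3 P3 libraries, 8 genes were called at P3 and 0, 486 and 527 between the days, and 14 were called in ABS when all 12 libraries were fitted together. With 1 library left out, 1 to 3 genes were called at P7, 0 to 4820 between the days in sham (4820 without sham replicate 1 of P3), 0 to 7468 in ABS (7468 without ABS replicate 3 of P3) and 1090 to 6223 over both (6223 without ABS replicate 3 and 5520 without sham replicate 1 of P3). For a library at its group's mean count, counting error was 6.43% to 7.68% for Igf1 and 4.77% to 6.39% for Igf1r. It was below the spread between libraries in every group.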
